A study of Mus musculus with 4 samples.

Results

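The SMC family of the array comprised 6 genes, chosen by name and by their measured values: Smc2 and Smc4 of condensin, Smc1a and Smc3 of cohesin, and Smc5 and Smc6 of the Smc5/6 complex. They are 6 of the 18193 genes to which the probe annotation gave a single symbol, and 21 probe sets, short oligonucleotide groups that each report on 1 transcript region, are annotated to them. The condensin pair was set against the other 4 genes because of how these same arrays read, so every member value below is a description and supports nothing beyond itself. RNA of mouse embryonic immortal 3T3 fibroblasts, a line that grows in serum, was measured on Affymetrix Mouse Genome 430 2.0 arrays. All 4 groups had been kept overnight in 0.5% serum. One group was harvested at that point (basal), and the others after exposure to the inflammatory cytokine TNF, tumour necrosis factor, lasting 0.5, 2 or 12 h. The labels give 10 ng/ml TNF for the 0.5 h and 12 h cells; the treatment text of the 2 h cells instead repeats that of the basal cells and names no TNF, so the labels conflict there, and all 2 h values rest on the title and source name, which give TNF for 2 h. Each group had 1 array, so there was no spread between replicates, 0 tests were run, and "fell" or "rose" means a ratio of at least 2-fold. No array of cells held equally long in low serum without TNF was analysed here, so TNF and elapsed time cannot be told apart.

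SMC proteins are long ATPases that pair up and, with non-SMC subunits, form rings around DNA. The Smc2 and Smc4 pair is shared by condensin I and condensin II, which compact chromosomes for mitosis. The Smc1a and Smc3 pair makes cohesin, which holds sister chromatids together and also shapes chromatin loops between divisions, so non-dividing cells need it too. Smc5 and Smc6 act with the Nsmce subunits in DNA repair and in resolving joined chromosomes after replication. Condensin genes are known to be expressed more in proliferating than in resting cells.

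Read by the probe set of highest mean log2 signal, which represented each gene, the condensin pair alone passed 2-fold. After 12 h of TNF Smc4 had fallen 5.67-fold and Smc2 2.25-fold below basal. Smc3 stood just short of 2-fold, Smc1a and Smc6 were lower by less, and Smc5 was close to basal. Thus 2 of the 6 genes were at least 2-fold lower at 12 h, where 5.18% of all 16269 genes analysed were, and 0 were higher, where 2.79% were. With every signal raised to at least 102, the 75th percentile of all values, the same count was 2 of 6, against 1.72% of 7311 genes. At 0.5 h 0 of 6 were lower and 0 higher, against 2.96% and 2.55% of all genes, and at 2 h again 0 and 0, against 3.60% and 2.58%. In a culture sampled as a whole, fewer cells that express a gene and less of its RNA in each cell cannot be told apart. Because these arrays led to the choice of the genes, nothing is read from these counts against the background.

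The promoter of Smc2, the falling member with a promoter in the RefSeq table, and that of Smc5, the member whose 12 h ratio lay closest to 0, are shown because many genes of mitosis are known to carry a CHR element, TTTGAA or TTCGAA, bound by cell cycle repressor complexes, often together with a CCAAT box. Each window runs from 250 bases before to 50 bases after the annotated start, 5′ to 3′ in the direction of the gene, from RefSeq on GRCm38.p6. Smc2 lies at chr4:52438971-52439270 on the + strand and Smc5 at chr19:23272550-23272849 on the - strand. Capitals mark a match on either strand to a CHR sequence, to the CCAAT box or to the E2F-type sequences TTTGGCGC and TTTCGCGC.
Smc2: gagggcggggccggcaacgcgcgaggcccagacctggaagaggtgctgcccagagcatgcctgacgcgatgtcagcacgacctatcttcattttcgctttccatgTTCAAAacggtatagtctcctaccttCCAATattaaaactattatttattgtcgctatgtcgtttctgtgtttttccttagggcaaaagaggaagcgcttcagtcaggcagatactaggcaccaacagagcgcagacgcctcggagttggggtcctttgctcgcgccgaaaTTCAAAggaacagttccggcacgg
Smc5: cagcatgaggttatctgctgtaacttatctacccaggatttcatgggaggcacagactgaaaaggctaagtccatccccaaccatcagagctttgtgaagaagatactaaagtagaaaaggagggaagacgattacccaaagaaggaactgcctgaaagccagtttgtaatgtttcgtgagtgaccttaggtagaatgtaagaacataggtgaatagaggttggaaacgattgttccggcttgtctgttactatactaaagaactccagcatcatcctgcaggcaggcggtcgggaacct
The Smc2 window held TTTGAA on the reverse strand at -145 and again at 27, counted from the start at 1 to the first printed base of the match, and CCAAT on the forward strand at -119. The Smc5 window held 0 matches. Promoter windows were matched for 5 of the 6 genes. A CHR sequence was present in those of Smc2 and Smc6, with 2 matches each, and CCAAT in those of Smc2 and Smc1a, while that of Smc3 held neither and 0 of the 5 held an E2F-type match. Of all 32817 promoter windows of this length, 19.2% held a CHR sequence, 37.4% a CCAAT and 0.814% an E2F-type match. Among the gene lists described below, a CHR sequence was found in 5 of 7 windows of condensin partners, 6 of 11 of cohesin partners and regulators, 0 of 5 of Smc5/6 partners and 5 of 6 of mitotic entry genes. It was found in 5 of 6 windows of other chromosome structure genes and 2 of 4 of meiotic cohesin genes. CCAAT was found in 2 of 7 windows of condensin partners, 6 of 11 of cohesin partners and 3 of 5 of Smc5/6 partners. Mitotic entry genes held it in 6 of 6, other chromosome structure genes in 4 of 6 and meiotic cohesin genes in 4 of 4. An E2F-type match was found in 1 of 7 windows of condensin partners, 1 of 11 of cohesin partners and 1 of 6 of mitotic entry genes. The windows of the other lists held 0. Windows were matched for 6 of 6 condensin partners, 10 of 15 cohesin partners and 4 of 7 Smc5/6 partners. They were matched for 6 of 9 mitotic entry genes, 6 of 7 other chromosome structure genes and 4 of 4 meiotic ones. These are matches of letters in a window and not measured sites; Smc6 held 2 CHR matches with a 12 h log2 ratio of -0.62.

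Smc4, the larger partner of the condensin pair, gave signals of 1737 in basal cells and 1337, 993 and 306 after 0.5, 2 and 12 h of TNF on its brightest probe set, 1427275_at. The signal was lower on each successive array, and the step between 2 and 12 h alone was a 3.24-fold fall. The log2 ratios to basal were -0.38, -0.81 and -2.50. A second Smc4 probe set, 1452197_at, read 760 in basal cells, then 688, 592 and 349, a 2.18-fold fall at 12 h. The third, 1427276_at, read 195 in basal cells, then 145, 132 and 90.5, a 2.15-fold fall. Between 2 and 12 h 1452197_at was 1.70-fold and 1427276_at 1.46-fold lower. The 2-fold call for that step thus rests on the brightest probe set. All 3 probe sets had the same order of the 4 arrays and passed 2-fold at 12 h, but they differed in size, by log2 ratios from -2.50 to -1.11. The size of the Smc4 fall therefore rests on which probe set is read; where its probe sets bind along the transcript was not analysed here.

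Smc2, the other condensin ATPase, gave 538 in basal cells and 472, 380 and 239 after 0.5, 2 and 12 h on 1448635_at. It too was lower on each successive array, with log2 ratios of -0.19, -0.50 and -1.17. Its 2-fold call held with median centring of the arrays (-1.02 at 12 h) and was lost with quantile normalization or cyclic loess (-0.93 with either). It was also lost when the ratios of its probe sets were averaged (-0.90). No step between neighbouring times reached 2-fold; between 2 and 12 h the log2 difference was -0.67. By the representing probe sets, Smc4 alone of the 6 genes was at least 2-fold lower at 12 h than at 2 h. Over all genes 3.12% were. The other Smc4 probe sets had log2 differences of -0.76 and -0.55 for this step, short of 2-fold and on either side of Smc2. The Smc4 call for this step therefore rests on its brightest probe set. The other 4 Smc2 probe sets were dim. On 1429658_a_at the signal was 62.4 in basal cells, 42.5, 32.5 and 25.2 after TNF, with a 12 h log2 ratio of -1.31. On 1429660_s_at it was 40.3, 40.9, 35.3 and 24.3 in the same order, with -0.73. The last pair, 1429659_at and 1458479_at, lay below the floor of 9.08, the 30th percentile of all values, on 2 and 3 of the 4 arrays, and their raw 12 h log2 ratios of -0.69 and -2.95 carry no reliable size.

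**Figure D1:**
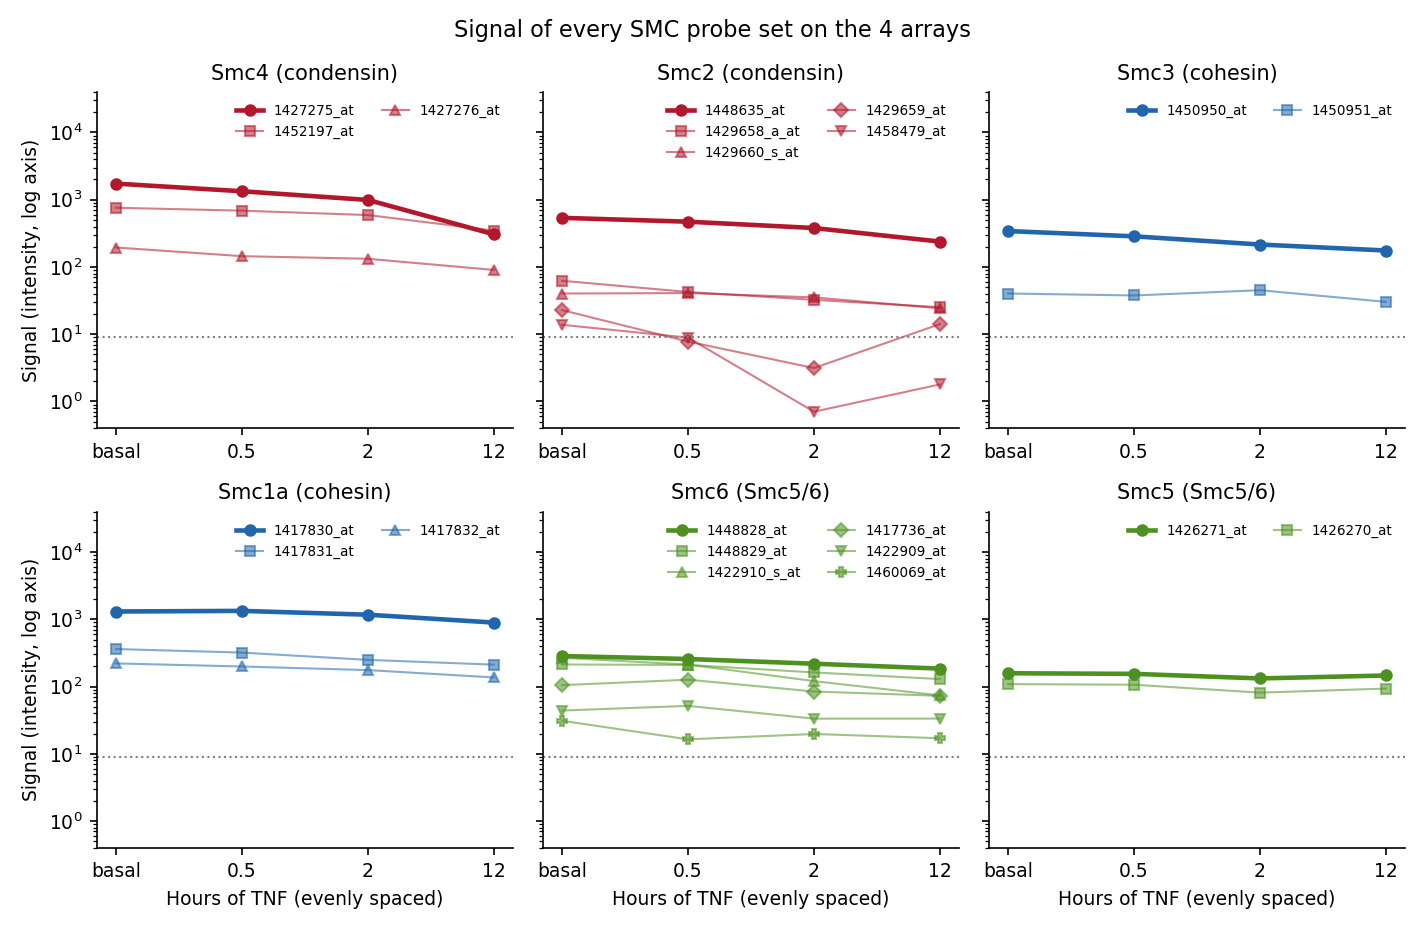
Signal (intensity, log axis) of each of the 21 SMC probe sets in basal cells and after 0.5, 2 and 12 h of TNF, 1 panel per gene and 1 line per probe set; the thick line is the probe set that represents the gene and the dotted line the floor of 9.08. Each point is 1 array. The 3 Smc4 lines descend across all 4 arrays, the brightest of them to 306 at 12 h, while both Smc5 lines are nearly level.

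Cohesin's pair had smaller ratios. Smc3, which closes the cohesin ring together with Smc1a and Rad21, read 342 in basal cells and 286, 216 and 176 after 0.5, 2 and 12 h on 1450950_at, with a 12 h log2 ratio of -0.96. It is the gene just outside the 2-fold rule, as Smc2 at -1.17 is the one just inside it. At 2 h its log2 ratio, -0.67, was below that of Smc2. Its dimmer probe set, 1450951_at, read 40.3, 37.7, 45.1 and 30.3 from basal to 12 h, a 12 h log2 ratio of -0.41. The 2 probe sets thus differed over the 2 h array, which was above basal on the dim one.

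Smc1a, Smc3's partner, read 1307 in basal cells and 1335, 1171 and 895 after 0.5, 2 and 12 h on 1417830_at. Its lowest value was at 12 h, a log2 ratio of -0.55, and its 0.5 h value was level with basal at 0.03. The other 2 Smc1a probe sets gave 12 h log2 ratios of -0.77 and -0.69, so its 3 probe sets lay within a narrow range and 0 of them passed 2-fold.

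In the Smc5/6 complex the partners differed. Smc5 read 158 in basal cells and 155, 132 and 146 after 0.5, 2 and 12 h on 1426271_at, and 109, 107, 81.3 and 93.4 on 1426270_at. Both probe sets had their lowest value at 2 h and not at 12 h, and the 12 h log2 ratios were -0.11 and -0.22. Smc6 read 285 in basal cells and 257, 219 and 185 after 0.5, 2 and 12 h on 1448828_at, with a 12 h log2 ratio of -0.62.

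Smc6 had 6 probe sets, and 1 of them stood apart. On 1422910_s_at there were 268 units of signal in basal cells and 212, 121 and 73.9 after 0.5, 2 and 12 h, which is a 2.22-fold fall at 2 h and a 3.62-fold fall at 12 h. The other 5 had 12 h log2 ratios from -0.86 to -0.40. In Affymetrix naming the suffix _s marks a probe set whose probes match more than 1 transcript, so this probe set need not report on Smc6 alone. That Smc6 probe set was the 1 of 13 from the cohesin and Smc5/6 genes to pass 2-fold at 12 h, and it was brighter than several that did not.

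Over all probe sets, with signals raised to the floor, 5 of the 8 condensin ones and 1 of the 13 cohesin and Smc5/6 ones were at least 2-fold lower at 12 h. From raw signals the condensin count was 6, the added one being 1458479_at. With the count limited to probe sets with a geometric mean signal of at least 102, those lower were 4 of 4 for condensin, from -2.50 to -1.11, and 1 of 8 for the others, from -1.86 to -0.11. Of these 4 condensin probe sets, 3 belong to Smc4 and 1 to Smc2. A share over all probe sets of the array is not given here, so nothing is read from these counts. Over genes, by their representing probe sets, 5.18% were at least 2-fold lower at 12 h. All 21 probe sets were below basal at 12 h, and 15 had their lowest value there. The median 12 h log2 ratio of all probe sets of the array was itself -0.20, and the share of them below basal is not given here. Probe sets of a gene read the same RNA on the same arrays and are not replicates.

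**Figure D2:**
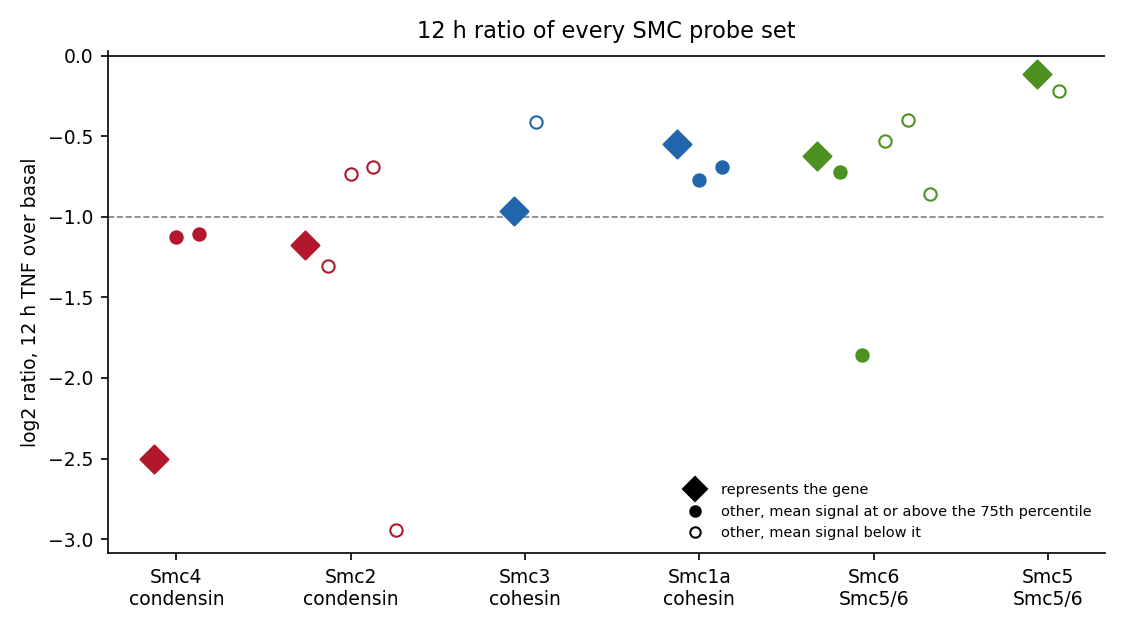
Log2 ratio of the 12 h TNF array to the basal array for each SMC probe set, by gene, with condensin on the left; diamonds represent the gene, filled circles are other probe sets with a geometric mean signal of at least 102, open circles are dimmer, and the dashed line marks 2-fold. All 3 Smc4 points lie below the dashed line, and a single filled Smc6 point, at -1.86, does so among cohesin and Smc5/6.

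By the representing probe sets, the condensin genes averaged a log2 ratio of -1.84 at 12 h and the other 4 SMC genes -0.56, a difference of -1.28. The difference was -0.18 at 0.5 h and -0.29 at 2 h. The size of the 12 h difference rested on the probe sets read. By the second brightest probe set of each gene, with Smc2 at -1.31 and Smc4 at -1.12, it was -0.68. By the mean of each gene's probe sets it was -0.65. In order of 12 h log2 ratio, Smc4 at -2.50 came lowest, then Smc2 at -1.17, Smc3 at -0.96, Smc6 at -0.62, Smc1a at -0.55 and Smc5 at -0.11. Smc2 and Smc3, and likewise Smc6 and Smc1a, stood closer to each other than the probe sets of Smc6 or of Smc3 did among themselves, so their order is not settled. At 0.5 and 2 h the order was different: Smc3 lay below Smc2 at both times.

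The arrays as a whole drifted downward as well. The median over all probe sets was 22.1 on the basal array and 21.3, 20.7 and 19.9 on the arrays of 0.5, 2 and 12 h, and the median 12 h log2 ratio of all genes analysed was -0.14, against -0.79 for the 6 SMC genes. At 0.5 h these medians were -0.17 for the SMC genes and -0.03 for all genes, and at 2 h -0.44 and -0.09. The 3′ over 5′ ratio of control probe sets, which reads RNA degradation, ran from 1.21 to 1.26 for Actb and from 0.736 to 0.776 for Gapdh, with the highest of each at 12 h; their part in the results was not tested. Of 6 fibroblast markers, 4 (Col1a1, Col1a2, Pdgfrb and Vim) were bright, with Vim at 9091 at 12 h and 9818 in basal cells, while Thy1 and Dcn stayed below 20 on all arrays. By its representing probe set none of 10 leukocyte, epithelial and endothelial markers reached 102 on any array, the brightest being Csf1r at 69.3 at 12 h and 58.7 in basal cells.

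Low signals scatter widely on these arrays, so each gene was also placed among genes of like brightness. Of the 1881 genes with a mean signal within 2-fold of that of Smc4, 1 had a lower 12 h ratio, and the middle 90% of them lay between -0.75 and 0.28. Of 3380 genes near Smc2 in signal, 47 were lower, and of 3995 near Smc3, 108 were. Smc1a and Smc6 lay inside the middle 90% of their neighbours, with 185 of 1527 and 425 of 4039 lower. For Smc5, 2549 of 4254 were lower. In the ranking of all 16269 genes at 12 h Smc4 was number 13 from the bottom and Smc2 number 507. Once signals were raised to 102 these places were 3 and 67 of 7311. The places of Smc4, and its count of 1 among 1881, rest on its brightest probe set. Its other 2 probe sets gave -1.12 and -1.11, less low than Smc2 at -1.17.

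**Figure D3:**
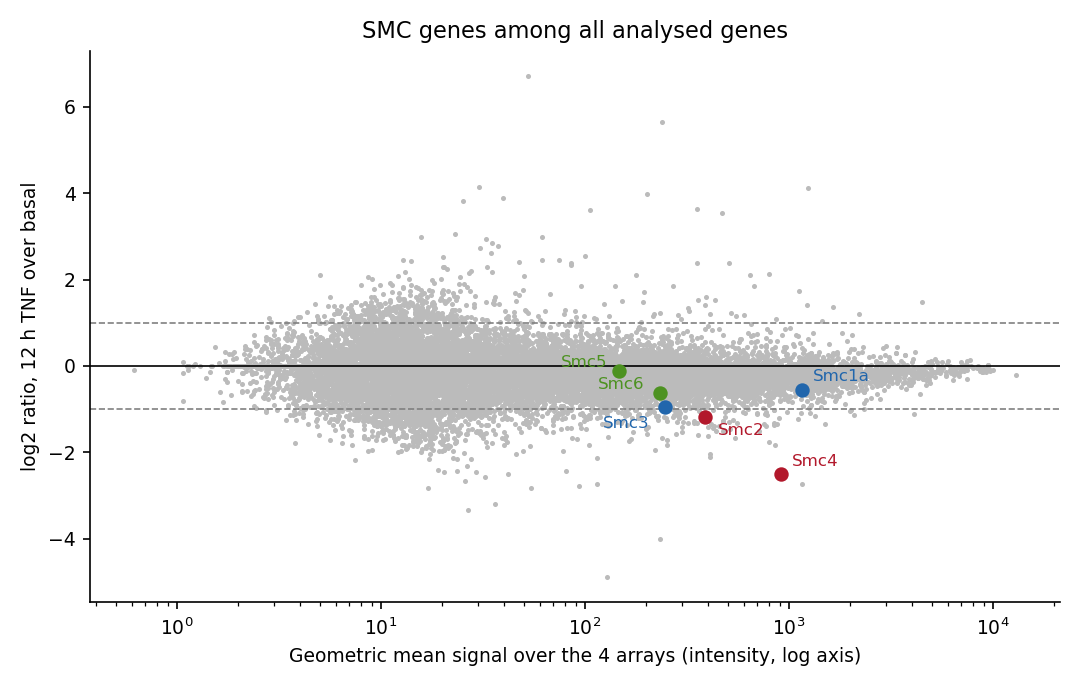
Log2 ratio of the 12 h TNF array to the basal array against the geometric mean signal over the 4 arrays (intensity, log axis) for the 16269 genes analysed (grey), with the 6 SMC genes coloured by complex; dashed lines mark 2-fold. Smc4, at -2.50 by its brightest probe set, lies well below the grey band at its brightness, and Smc5, at -0.11, lies within it.

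The non-SMC subunits of condensin followed in part. All 6 were below basal at 12 h (median log2 ratio -0.96), and 2 fell by the 2-fold rule, beside 5.18% of all genes. Being below basal was common: the median 12 h log2 ratio of all genes analysed was itself -0.14. Among the other lists, 14 of 15 cohesin partners and 4 of 6 Smc5/6 partners were below basal. So were 7 of 7 other chromosome structure genes and 8 of 8 mitotic entry genes. The share of all genes below basal is not given here, so nothing is read from these counts below basal. Ncapg, a HEAT-repeat subunit of condensin I, fell to 95.9 at 12 h, against 214 in basal cells. Ncapg2, its counterpart in condensin II, fell to 185 at 12 h, against 374 in basal cells. Ncaph, the kleisin that closes the condensin I ring, had a log2 ratio of -0.997 that stopped just short of the rule (410 at 12 h and 818 in basal cells), and Ncapd2 one of -0.93. The condensin II genes Ncapd3 and Ncaph2 stood at -0.68 and -0.45. The probe sets of Ncaph2 ran from -0.74 to 0.36. At 0.5 and 2 h 0 of the 6 passed 2-fold, and at 12 h 0 did with quantile normalization or loess. The shares of all genes under those scalings are not given here.

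Among 15 partners and regulators of cohesin, 1 fell and 0 rose at 12 h, and the list's median was -0.53; over all genes 5.18% were at least 2-fold lower and 2.79% higher. The gene that fell was Esco2, which acetylates Smc3 during S phase, at 30.5 at 12 h and 65.3 in basal cells, a low signal. With quantile normalization or loess 0 of the 15 passed 2-fold. The shares of all genes under those scalings are not given here. Rad21, the kleisin of cohesin, read 1550 at 12 h and 2397 in basal cells (-0.63), close to its partner Smc1a. Stag2, a core subunit, stood at -0.32, and Pttg1, encoding securin, which restrains the cohesin-cleaving enzyme until anaphase, at -0.87 (1561 at 12 h and 2850 in basal cells). Probe sets disagreed for several of these genes, for example from -1.82 to -0.08 for the loader gene Nipbl.

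Of 7 partners of Smc5/6, 6 were analysed and 0 passed 2-fold at any time, with a median 12 h log2 ratio of -0.23. Nsmce2, a SUMO ligase bound to Smc5, stood at -0.58 (517 at 12 h and 775 in basal cells), Nsmce1 at -0.44 and Nsmce4a at -0.72. Eid3 lay below the floor on all 4 arrays.

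Genes of mitotic entry, which act on condensin or are active beside it, had the lowest median of the lists compared. Of 8 analysed, 7 fell at 12 h and 0 rose, beside 5.18% and 2.79% of all genes. The list's median log2 ratio was -1.28, and 0 passed 2-fold at 0.5 or 2 h. Cdk1, the kinase that phosphorylates condensin at mitotic entry, fell to 721 at 12 h, against 1539 in basal cells. Aurkb, whose kinase promotes condensin loading, fell to 99.6 at 12 h, against 231 in basal cells, and Aurka, Bub1, Ccnb2, Ccna2 and Plk1 had log2 ratios between -1.52 and -1.17. Foxm1 was the exception at -0.88. Probe sets disagreed for some of these genes. Without a floor, Bub1 ran from -1.39 to 0.16, Aurka from -1.52 to -0.66 and Foxm1 from -0.88 to 0.52. With quantile normalization or loess 4 of the 8 passed 2-fold, and the shares of all genes under those scalings are not given here. The ratio of Smc2 lies within the range of these genes, and that of Smc4 by its brightest probe set lies below all of them, but those of its other 2 probe sets, -1.12 and -1.11, do not.

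**Figure D4:**
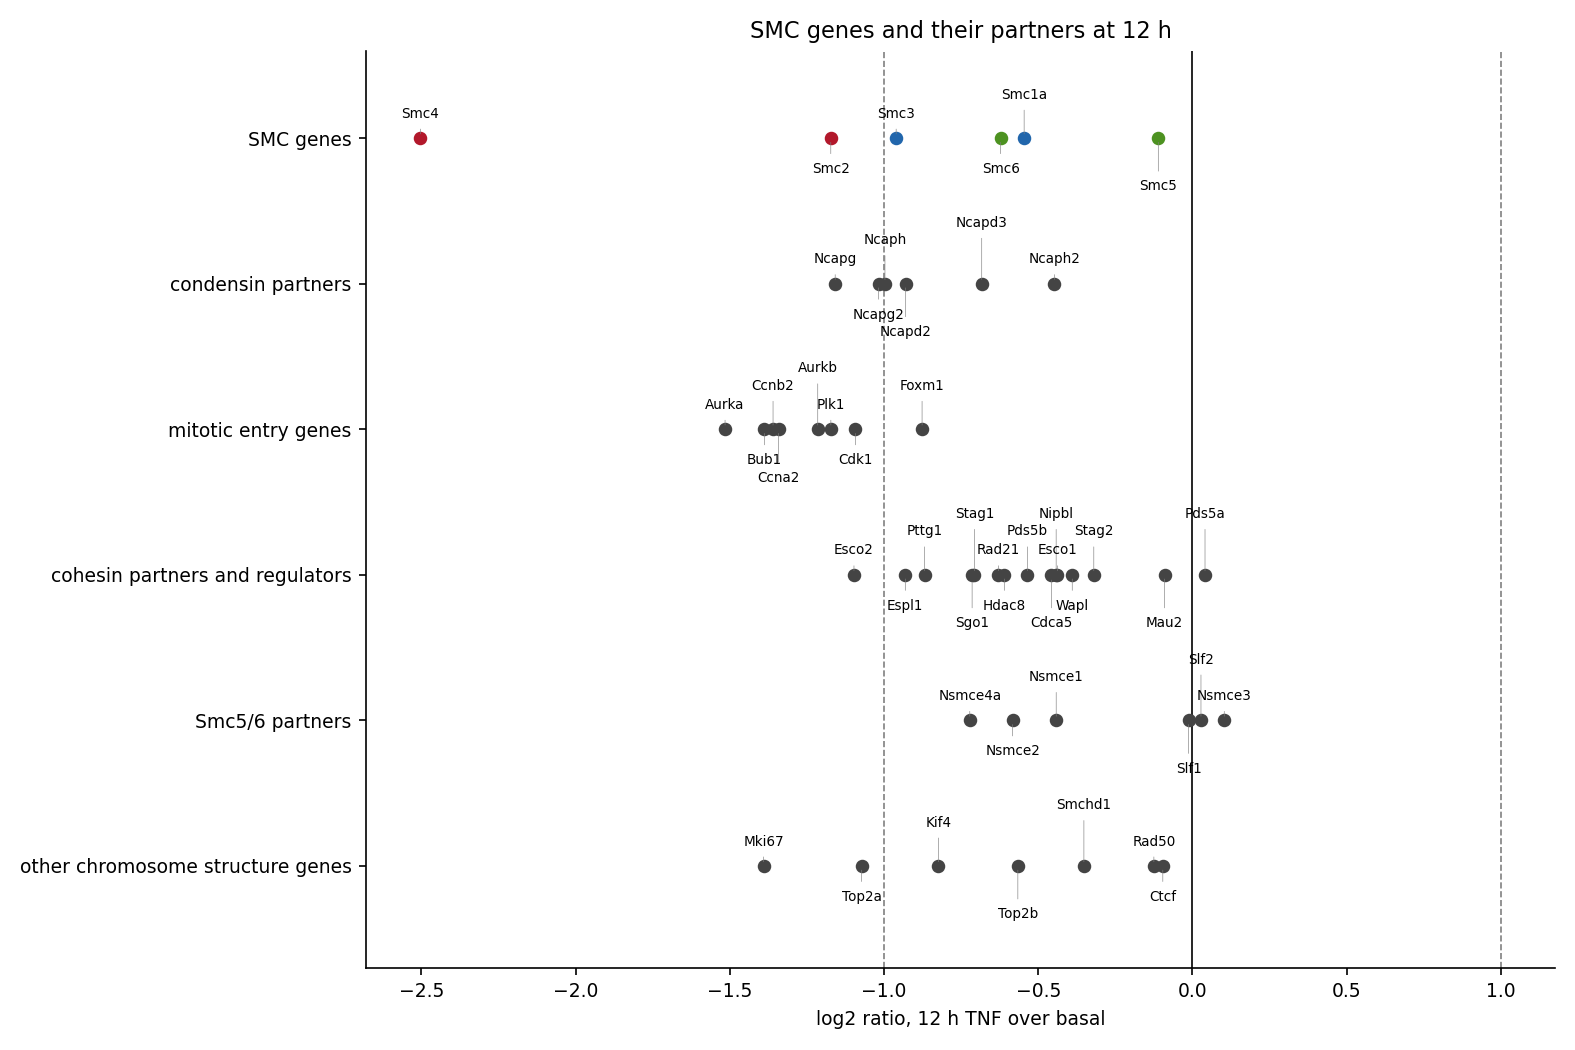
Log2 ratio of the 12 h TNF array to the basal array for the SMC genes (red condensin, blue cohesin, green Smc5/6) and for the analysed members of 5 gene lists (grey); dashed lines mark 2-fold. Mitotic entry genes have the lowest median, -1.28, followed by the condensin partners at -0.96, and Smc5/6 partners lie closest to 0.

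The genes most like each condensin gene were taken as those with the smallest Euclidean distance between the 3 log2 ratios to basal, among 6791 other genes with a mean signal of at least 102. For Smc4, by its brightest probe set, these were Shcbp1 (distance 0.50), Eva1a, Id2, Plagl1 and Dlgap5 (0.78). Their 12 h log2 ratios ran from -2.13 to -1.82. Shcbp1 read 166 at 12 h and 683 in basal cells, and Dlgap5, a spindle protein gene, 110 at 12 h and 387 in basal cells. For Smc2 they were Akr1c14 (0.05), Mastl, Add3, Depdc1a and Cenpi (0.10), with 12 h log2 ratios from -1.20 to -1.11. Mastl encodes a kinase that keeps mitotic phosphorylation in place, and Cenpi a centromere protein. Roles are given here for some of the listed genes only, and not for the nearest, Shcbp1 and Akr1c14. No shared function is therefore read from the lists. Smc2 itself was number 62 in likeness to Smc4, at a distance of 1.38. In the other direction Smc4 was number 5748 of 6791 in likeness to Smc2. The distance, these places and the list for Smc4 rest on the brightest Smc4 probe set. By 1452197_at the distance was 0.156 and by 1427276_at 0.253, readings added after seeing the data. Lists of like genes by those probe sets were not drawn up. Likeness over 3 ratios that share 1 basal array is a description of these 4 arrays.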

How the data were processed

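RNA was measured on 4 arrays, 1 per group. The deposited table gives a linear intensity for every probe set; per the labels, 8 µg of total RNA was labelled by standard Affymetrix procedures, and for the authors' signal algorithm and scaling the sources used here name none. Of 45101 probe sets, 64 were controls, 34945 others carried 1 gene symbol, 932 several and 9160 were not listed; 34741 were matched to RefSeq (GRCm38.p6) by gene ID. Signals below the 30th percentile (9.08) were raised to it, the probe set of highest mean log2 signal stood for its gene, and genes at the floor on all arrays were left out. Ratios are TNF over basal without further scaling. With 1 array per group no test was run, and the number of arrays limits the precision. The members and gene lists were chosen with earlier results of these data known. Of each list the text names the genes past 2-fold and the 3 of highest signal; other list genes named (Ncapd3, Nipbl, Eid3, Foxm1, Ctcf, Rad50, Smc1b, Rec8) were picked after their values were seen. Alternatives were median centring, quantile normalization and cyclic loess (limma 3.58.1), no floor, a floor at the 75th percentile, the mean or second brightest probe set, and a 3-fold rule. Python 3.11.15 and pandas 2.3.3 were used, and the ratio step was tested on simulated data.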

Additional observations from a re-analysis of the deposited data

How the results depend on the processing

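Ratios at 12 h kept their direction for Smc1a, Smc2, Smc3, Smc4 and Smc6 under all 7 alternatives other than the 3-fold rule. Smc5 ran from -0.22 to 0.12. Smc2 was at -1.02 with median centring and short of 2-fold with quantile normalization (log2 -0.93), cyclic loess (-0.93) and the mean of its probe sets (-0.90), so 1 SMC gene, Smc4, was lower with these, and 1 under the 3-fold rule. Smc4 ran from -2.50 to -1.12, which its second brightest probe set gave. Both condensin genes lay below all other SMC genes at 12 h in 8 of 8 settings, and at 0.5 h and at 2 h in 1 of 8. Changing the floor left these SMC ratios as they were, and median centring shifts every gene alike. Those settings could not alter the order, so the count of 8 overstates how often it was tried. The condensin difference at 12 h was -0.65 with the mean of probe sets and -0.68 with the second brightest ones. Condensin partners lower at 12 h numbered 1 with median centring, 0 with quantile normalization and 0 with loess; mitotic entry genes 6 with median centring, 4 with quantile normalization, 4 with loess and 5 with the mean of probe sets; other chromosome structure genes 1 with each of the 3 scalings and with the mean of probe sets; cohesin partners 0 with each scaling and with the higher floor, and 2 with the mean of probe sets. By the 3-fold rule 0 genes of these 4 lists were lower. Shares of all genes under the scalings, the mean of probe sets and the 3-fold rule are not given here. Nothing is therefore read from these counts against a background. Without a floor, 1 Smc5/6 partner and 1 meiotic gene were higher and 1 meiotic gene lower, all from signals under 20. The cause of these shifts was not tested. Of 126 ratios of single SMC genes under an alternative, 123 kept their side of 2-fold. The ratios that changed side were all of Smc2 at 12 h. In the main setting only Smc4 and Smc2 at 12 h were past 2-fold, so the count of 123 overstates how often a call was tried. The ratios under a changed floor repeat the main values and could not change side.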

Other observations

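Other genes of chromosome structure fell in part at 12 h. Of 7, 2 were at least 2-fold lower and 0 higher, beside 5.18% and 2.79% of all genes, and the median log2 ratio was -0.57. Mki67, whose protein coats mitotic chromosomes, read 235 at 12 h and 616 in basal cells, and Top2a, the topoisomerase that untangles chromosomes beside condensin, 481 at 12 h and 1012 in basal cells. Smchd1, which carries an SMC hinge and acts on the inactive X chromosome, stood at -0.35 (334 at 12 h and 427 in basal cells). Rad50, an SMC-like repair protein gene, was at -0.12, and Ctcf, whose protein halts cohesin on chromatin, at -0.10. A dim second probe set of Smchd1 gave -3.68 and one of Rad50 2.54, both without a floor. The probe sets of Top2a ran from -1.07 to -0.25.

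The meiotic cohesin genes Smc1b and Rec8 lay below the floor on all 4 arrays, Smc1b at 1.52 at 12 h and 1.27 in basal cells. Stag3 was just above it in basal cells (14.2) and at 2 h (17.0), and below it at 12 h (2.05). Smc2os, transcribed from the strand opposite Smc2, was also below the floor throughout, at 1.05 at 12 h and 1.33 in basal cells.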
